A study of Mus musculus with 6 samples.

Results

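Aminoacyl-tRNA synthetases are the enzymes that join each amino acid to its transfer RNA, the step that fixes which amino acid a codon stands for. The genes were chosen by name, as 36 listed symbols, and all 36 were found under those symbols among 49492 genes of the count table. 20 encode the cytosolic enzymes and 16 encode enzymes of mitochondria, whose symbols end in 2. They were followed in the mouse atrial cardiomyocyte line HL-1 kept in palmitic acid, a common saturated fat with which lipid overload is modelled. 3 libraries came from cells made to overexpress the long noncoding RNA ZNF593-AS and 3 from cells given a vector, and both groups had palmitic acid, so no difference can be ascribed to the fatty acid. All libraries came from 1 cell line, and no label states that replicates were grown separately, so p-values here reflect the spread among the libraries only, and that spread may be technical.

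Each cytosolic enzyme reads the anticodon or shape of its transfer RNA, activates its amino acid with ATP and joins it to that RNA. Several of them sit together in the multi-synthetase complex, held by 3 scaffold proteins, and glycyl- and lysyl-tRNA synthetase (Gars, Kars) serve the cytosol and mitochondria from the same gene. The mitochondrial enzymes are encoded in the nucleus and imported to charge the transfer RNAs with which mitochondria make their few respiratory chain proteins. Many cytosolic synthetase genes are known targets of ATF4, the transcription factor of the integrated stress response, and Wars, for tryptophan, is known to be induced by interferon.

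Gene counts summed to 61042914 to 84547615 per ZNF593-AS library and to 51470457 to 73529088 per vector library. The titles of all treated libraries read ZNF593-AS, while under treatment ZNF594-AS is entered for replicate 2 and ZNF595-AS for replicate 3, so the libraries were grouped by title. ZNF593-AS is a human RNA and has no row in the mouse table, so overexpression could not be checked in these counts. Of 13 atrial cardiomyocyte markers, 7 (Nppa, Sln, Myh6, Myl7, Actc1, Tnni3 and Tbx5) were too low to test. Summed levels of the 13 were 103 to 118 CPM in the ZNF593-AS libraries and 96.2 to 108 CPM in the vector libraries. Most of that sum was Tnnt2, followed by Gata4 (9.28 ± 0.943 and 9.50 ± 0.378 CPM). Most listed atrial markers were thus near 0 in these cells. No read was counted for Nppa or Sln, so each could be at most at 0.0149 CPM over the 6 libraries (3 fragments with both mates counted, counting error only), and Myh6, the atrial myosin heavy chain, stood at 0.0369 ± 0.0279 CPM with ZNF593-AS and 0.178 ± 0.139 CPM with vector (SD, n = 3 each), whereas Tnnt2, a cardiac troponin, stood at 97.4 ± 8.62 and 89.2 ± 5.99 CPM. Summed levels of 8 fibroblast markers were 387 to 464 CPM in the ZNF593-AS libraries and 507 to 524 CPM in the vector libraries, of 8 macrophage markers 9.11 to 10.4 and 7.58 to 8.66 CPM, and of 7 endothelial markers 0.953 to 1.66 and 0.857 to 1.38 CPM. Within the fibroblast list the collagens Col1a1, Col1a2 and Col3a1 were called lower and Pdgfra higher (0.39 ± 0.11, edgeR adjusted p = 0.0370), and within the macrophage list Cd68 was called higher (0.46 ± 0.13, edgeR adjusted p = 0.0316) while Lyz2 was at -0.53 ± 0.33 and did not pass. The part of these cell types in the results below was not tested.

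The cytosolic enzymes were among the most abundant transcripts of these cells. Levels are given as CPM (counts relative to the library size, which was scaled with TMM factors) per kilobase of exon, so that genes of unequal length can be compared. The median cytosolic enzyme stood at 52.9 CPM per kilobase over the 6 libraries, at percentile 92.7 of the 16473 tested genes. The median of all tested genes was 3.11 CPM per kilobase. The asparagine enzyme gene Nars led, with 1137 ± 74.7 CPM per kilobase in ZNF593-AS cells and 1259 ± 38.0 CPM per kilobase in vector cells (SD, n = 3 each), and only 47 tested genes stood higher. The serine enzyme gene Sars followed with 583 ± 23.8 and 640 ± 18.6 CPM per kilobase. Together Nars and Sars took 47.9 ± 1.37% of the CPM of all cytosolic synthetases in ZNF593-AS cells and 48.2 ± 0.466% in vector cells, a share of reads that is not per length.

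Below them came the threonine enzyme gene Tars (299 ± 6.25 CPM per kilobase with ZNF593-AS and 324 ± 7.61 with vector) and the arginine enzyme gene Rars (277 ± 19.1 and 318 ± 21.6), whose ranges over the 6 libraries overlapped. Gars for glycine (227 ± 1.24 and 225 ± 4.14) and Lars for leucine (168 ± 3.11 and 188 ± 12.0) were next, and the range of neither overlapped that of the gene below. Wars, Kars and the alanine enzyme gene Aars overlapped in turn between 64.2 and 90.9 CPM per kilobase. A run of 5 genes with overlapping neighbours followed, for histidine (Hars), cysteine (Cars), tyrosine (Yars), glutamate and proline (Eprs) and aspartate (Dars), at 54.7, 51.1, 48.2, 45.9 and 45.9 CPM per kilobase over all libraries. At the low end were the phenylalanine subunit genes Farsa and Farsb (30.6 and 22.3), Iars for isoleucine (30.5), Mars for methionine (26.8) and Vars for valine (19.8). Qars, for glutamine, was lowest at 6.19 ± 0.0962 CPM per kilobase with ZNF593-AS and 6.80 ± 0.217 with vector, with no overlap with Vars above it. In all, 11 of 19 neighbouring pairs in this order overlapped.

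The exon lengths are those of the deposited table and equal the joined exons it lists for each of the 36 genes. They ran from 0.658-fold (Tars) to 3.81-fold (Cars2) the principal transcript of GENCODE M21, and 5 were shorter than it, so the choice of length can raise or lower a level. Per kilobase of principal transcript, Nars and Sars remained the 2 highest and Iars, Mars, Farsb, Vars and Qars the 5 lowest in the same order, while Eprs stood 7th at 169 CPM per kilobase, against 13th at 45.9 by deposited length. Tars stood 5th at 205 CPM per kilobase, against the third place at 311 by deposited length. Its listed exons hold 2636 bases, fewer than the 4005 of the principal transcript, so the value of 205 may be too low.

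**Figure D1:**
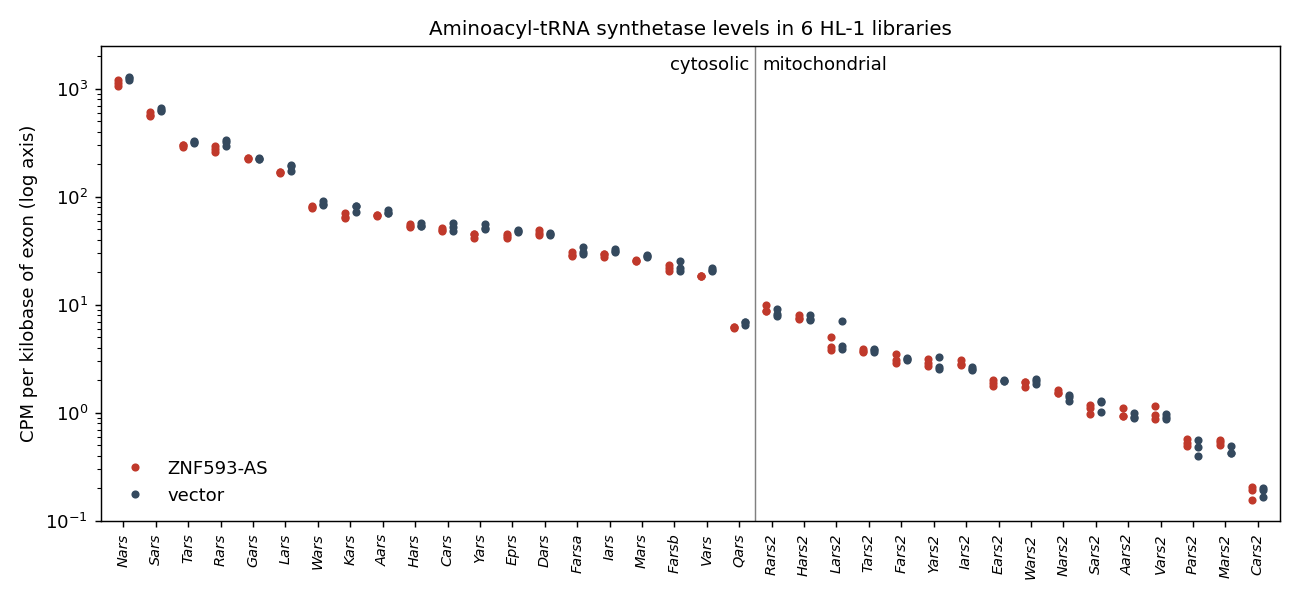
Level of each synthetase gene in every library, in CPM per kilobase of exon on a log axis, with the cytosolic genes left of the line and the mitochondrial genes right of it; red points are the 3 ZNF593-AS libraries and dark points the 3 vector libraries. The cytosolic genes run from Nars, above 1000 CPM per kilobase, to Qars, which alone lies among the mitochondrial genes, and Lars2 has 1 vector library above the others.

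The mitochondrial enzymes were far less abundant, with a median of 1.93 CPM per kilobase, at percentile 41.1 of the tested genes. Rars2 led with 9.16 ± 0.717 CPM per kilobase in ZNF593-AS cells and 8.47 ± 0.686 in vector cells (SD, n = 3 each), followed by Hars2 with 7.66 ± 0.348 and 7.55 ± 0.439. The lowest were Pars2 at 0.529 ± 0.0376 and 0.482 ± 0.0805, Mars2 at 0.538 ± 0.0291 and 0.447 ± 0.0433, and Cars2 at 0.185 ± 0.0247 and 0.187 ± 0.0199 CPM per kilobase. In the order of the 16 genes, 8 of 15 neighbouring pairs overlapped in range. Per kilobase of principal transcript Lars2 headed the list at 13.3 CPM per kilobase, just above Rars2 at 13.1, against the third place by deposited length. That Lars2 mean includes vector replicate 1 at 78.1 CPM, where its other libraries ranged from 42.5 to 56.2 CPM, so its lead is uncertain. Cars2 was at 0.708 CPM per kilobase of principal transcript.

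Each of the 15 pairs of enzymes for the same amino acid had the cytosolic gene higher in every library. The ratio of CPM per kilobase was smallest for Hars over Hars2, at 7.08 ± 0.111 in ZNF593-AS cells and 7.32 ± 0.500 in vector cells, and largest for Nars over Nars2, at 733 ± 24.0 and 912 ± 83.4 (SD, n = 3 each). Hars and Hars2 share 195 exon bases on opposite strands, 9.81% of Hars and 4.56% of Hars2, so their ratio is uncertain. Wars over Wars2 stood at 43.4 ± 2.93 and 44.4 ± 1.13. Per kilobase of principal transcript, the cytosolic gene was again higher in 15 of 15 pairs by the mean over all libraries and Hars over Hars2 was again smallest, at 5.60, but Sars over Sars2 (436) then stood above Nars over Nars2 (424).

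Between the groups, the synthetases differed little. Of the 20 cytosolic genes 1, Yars, fell in ZNF593-AS cells (edgeR quasi-likelihood test, adjusted over all tested genes, threshold 0.05), 0 rose and 19 did not pass. Of all tested genes 8.40% were called, 6.16% lower and 2.23% higher, so 1 of 20 is near the background. At an unadjusted p under 0.05, 8 of the 20 were lower and 0 higher, where 11.2% of all tested genes were lower. 18 of the 20 log2 fold changes were below 0, with a median of -0.13 and a range of -0.25 to 0.04, beside a median of 0.01 and 47.9% below 0 over all tested genes. In 12 of the 20 genes all 3 ZNF593-AS libraries lay under all 3 vector libraries in CPM, where 13.4% of all tested genes did. The shares over all tested genes, here and below, cover genes of every level. Their standard errors (SE) ran from 0.06 to 1.13, against 0.06 to 0.08 in the cytosolic genes. Small offsets pass more easily where the SE is small, so these shares are not a matched background. The summed CPM of the 20 genes was 12456, 12204 and 12814 in ZNF593-AS replicates 1 to 3, against 13691, 13830 and 13603 in vector replicates 1 to 3.

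These small offsets depended on how the libraries were scaled. With library totals in place of TMM factors, the tested genes shifted upward by a median of 0.09 on the log2 scale. 15 of 20 cytosolic fold changes were then below 0, with a median of -0.04. The libraries were apart in 2 of the 20 genes downward and 2 upward. Of all tested genes, 7.27% were apart downward and 24.1% upward under this scaling. The summed CPM of the 20 genes overlapped (12877, 12782 and 12997 against 12863, 13606 and 13377). Relative to the median of all tested genes, which a change of scaling moves along with the members, 19 of the 20 lay lower, by 0.14 at the median. In TMM-scaled CPM, ribosomal RNA was also lower in all ZNF593-AS libraries than in all vector libraries, as were 13.4% of all tested genes. Rn18s-rs5 stood at 6286 to 6490 CPM with ZNF593-AS and 7169 to 9455 CPM with vector, and did not pass (-0.31 ± 0.10, edgeR adjusted p = 0.0751). The range was 133 to 150 and 193 to 239 CPM for mt-Rnr1, and 145 to 175 and 185 to 242 CPM for mt-Rnr2. The part of ribosomal RNA in the offsets was not tested. The count of libraries apart and the sums under library totals were added after the data had been seen.

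**Figure D2:**
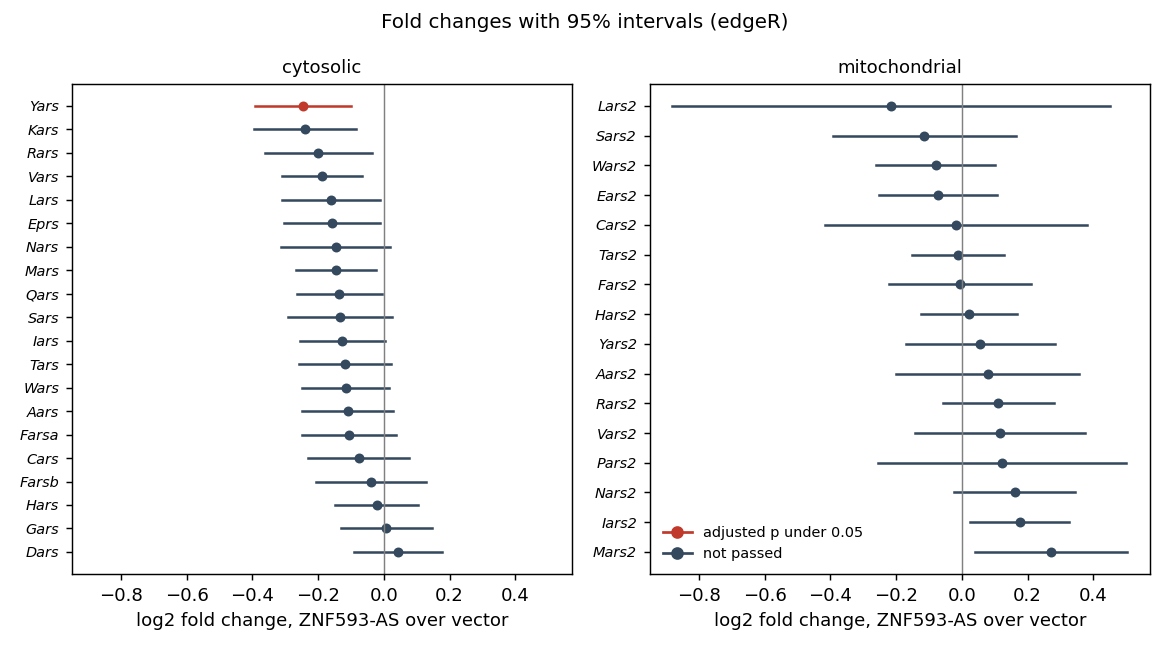
Log2 fold change of ZNF593-AS over vector for each synthetase gene with its 95% interval from edgeR, cytosolic genes on the left and mitochondrial genes on the right, each ordered from lowest to highest from top to bottom. Yars (red) passed the threshold, 18 of 20 cytosolic values lie left of 0, and Lars2 has the widest interval, -0.88 to 0.45.

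Yars (chromosome 4, 129189760 to 129219607, plus strand, GRCm38), which charges transfer RNA with tyrosine, had 270, 271 and 245 CPM in ZNF593-AS replicates 1 to 3, against 304, 330 and 298 CPM in vector replicates 1 to 3. The groups did not overlap, and the fall was small, a log2 fold change of -0.25 ± 0.07 (SE, edgeR adjusted p = 0.0336), or 15.6%. The call ended under library totals (-0.15, adjusted p = 0.166) and when any library other than vector replicate 3 was left out (-0.27 to -0.20, adjusted p 0.0557 to 0.178). Its exons share 30 bases with those of C77080 on the opposite strand, which stood at 50.6 ± 4.41 and 47.7 ± 1.202 CPM and did not pass (0.09 ± 0.07, edgeR adjusted p = 0.539).

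Kars and Vars came next by p and did not pass. Kars, for lysine, had 287, 289 and 318 CPM with ZNF593-AS, against 370, 320 and 366 CPM with vector. Replicate 3 of ZNF593-AS and replicate 2 of vector nearly met, and the log2 fold change was -0.24 ± 0.07 (edgeR adjusted p = 0.0554). Vars, for valine, had 104, 105 and 104 CPM with ZNF593-AS, against 117, 116 and 122 CPM with vector. Its libraries were close within each group and apart between them (-0.19 ± 0.06, edgeR adjusted p = 0.0572). DESeq2 called Kars, Vars and Yars lower and no synthetase higher, beside 6.63% of tested genes lower and 2.34% higher. Limma-voom called Yars lower and no synthetase higher, beside 6.13% lower and 2.05% higher.

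**Figure D3:**
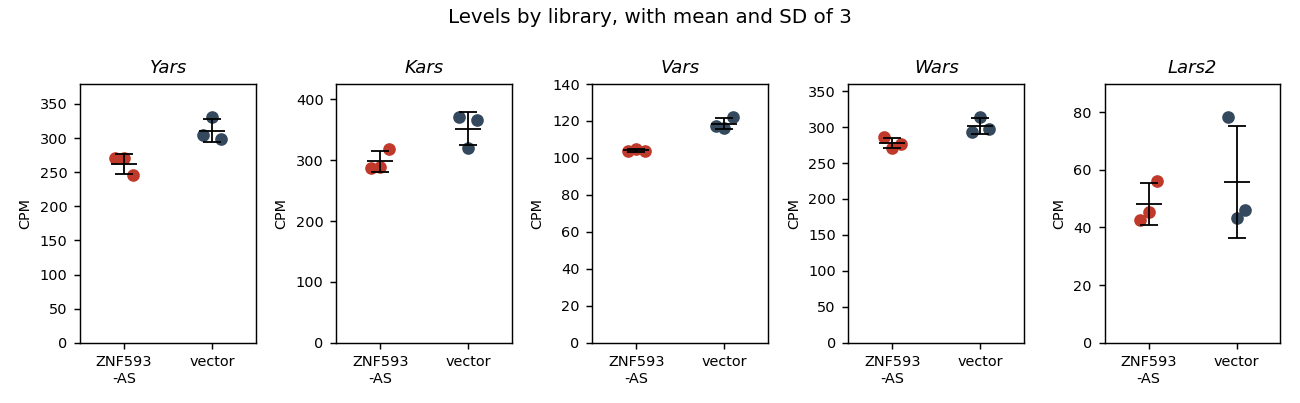
CPM of 5 synthetase genes in each library, ZNF593-AS left of vector, with the mean and SD of 3 libraries as bars. Yars, Kars, Vars and Wars libraries do not overlap between groups but lie close together on axes that start at 0, and Lars2 has vector replicate 1 at 78.1 CPM above its other libraries.

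The 8 enzymes of the multi-synthetase complex (Eprs, Iars, Lars, Mars, Qars, Rars, Kars and Dars) had a median log2 fold change of -0.15, and the 12 other cytosolic genes -0.11. None of the 8 passed edgeR. At an unadjusted p under 0.05, 6 were lower and 0 higher, where 11.2% of all tested genes were lower. DESeq2 called 1, Kars, lower, beside 6.63% of all tested genes, and limma-voom called 0. Rars had 960, 887 and 838 CPM with ZNF593-AS, against 1044, 1087 and 951 CPM with vector, so that the groups overlapped (-0.20 ± 0.08, edgeR adjusted p = 0.146). Eprs, whose protein charges transfer RNA with both glutamate and proline, had 748, 785 and 826 CPM against 864, 899 and 867 CPM, with no overlap (-0.16 ± 0.07, edgeR adjusted p = 0.206). Lars (-0.16 ± 0.07), Mars (-0.14 ± 0.06), Qars (-0.14 ± 0.06) and Iars (-0.13 ± 0.06) had similar offsets, while Dars was at 203 ± 10.04 and 197 ± 5.04 CPM (0.04 ± 0.06). The 3 scaffold genes did not pass. Aimp1 was at 164 ± 4.79 CPM with ZNF593-AS and 164 ± 5.94 CPM with vector, Aimp2 at 28.3 ± 2.09 and 27.7 ± 0.827, and Eef1e1 at 115 ± 3.51 and 108 ± 2.17 (0.09 ± 0.06, edgeR adjusted p = 0.419). At an unadjusted p under 0.05 there were 0 among the 3.

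Among the other cytosolic genes, the most abundant, Nars, had 2968, 2810 and 3201 CPM with ZNF593-AS, against 3388, 3200 and 3353 CPM with vector, and the third ZNF593-AS library lay level with the lowest vector library (-0.15 ± 0.08, edgeR adjusted p = 0.309). Sars had 2971, 2893 and 3133 CPM against 3266, 3394 and 3207 CPM, without overlap (-0.13 ± 0.07, edgeR adjusted p = 0.342). Tars (-0.12 ± 0.07) and Aars (-0.11 ± 0.07) were alike in size. Gars had the smallest difference, at 710, 709 and 703 CPM against 698, 718 and 694 CPM (0.01 ± 0.06, 95% interval -0.13 to 0.15). Farsa, the alpha subunit of the phenylalanine enzyme, was at 134 ± 6.34 and 144 ± 10.6 CPM (-0.11 ± 0.07), and Farsb, its beta subunit, at 57.7 ± 4.13 and 59.3 ± 6.56 CPM (-0.04 ± 0.08). Hars was at 108 ± 3.49 and 109 ± 2.88 CPM (-0.02 ± 0.06) and Cars at 327 ± 13.5 and 345 ± 29.7 CPM (-0.08 ± 0.07). The 95% intervals of all 20 cytosolic genes lay within a 1.5-fold change either way.

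Wars (chromosome 12, 108860030 to 108894174, minus strand), the synthetase known for its response to interferon, had 286, 271 and 277 CPM in ZNF593-AS replicates 1 to 3, against 293, 313 and 297 CPM in vector replicates 1 to 3. All 3 ZNF593-AS libraries lay just under the vector libraries, but the difference did not pass (log2 fold change -0.12 ± 0.06, edgeR adjusted p = 0.323). Its 95% interval was -0.25 to 0.02, or a fold of 0.841 to 1.01. In the same libraries 11 of 15 tested genes of the interferon pathway were called lower and 0 higher, beside 6.16% and 2.23% of all tested genes, and the median of the 15 was -2.11. Cxcl10, a chemokine induced by interferon, was at 3.74 ± 0.174 CPM with ZNF593-AS and 199 ± 19.7 CPM with vector (-5.73 ± 0.09, edgeR adjusted p = 1.68e-16), Irf1, the transcription factor of the interferon gamma response, at 52.4 ± 4.99 and 226 ± 3.41 CPM (-2.11 ± 0.07), and Cxcl9 at 0.229 ± 0.0813 and 3.103 ± 0.813 CPM (-3.78 ± 0.27). The difference between these genes and Wars was not tested.

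None of the 16 mitochondrial genes passed edgeR, and DESeq2 and limma-voom called 0 as well. At an unadjusted p under 0.05 there were 0 lower and 2 higher, where 9.18% of all tested genes were higher. The median log2 fold change was 0.04, with 7 values below 0 and 9 above, and the range was -0.21 to 0.27. The 2 genes were Mars2, for methionine, and Iars2, for isoleucine. Mars2 had 6.38, 5.73 and 6.11 CPM with ZNF593-AS, against 4.76, 5.61 and 4.76 CPM with vector, with all ZNF593-AS libraries above (0.27 ± 0.11, edgeR adjusted p = 0.162). Iars2 had 25.1, 27.7 and 24.7 CPM against 23.8, 22.5 and 22.3 CPM, again without overlap (0.18 ± 0.07, edgeR adjusted p = 0.165). With library totals both passed (Mars2 0.36, edgeR adjusted p = 0.0436, and Iars2 0.27, edgeR adjusted p = 0.0270), under the scaling that shifted all genes upward. These 2 of 16 stand beside 1284 of 16473 tested genes called higher under that scaling. Iars2 shares 2034 exon bases, 22.9% of its exons, with Rab3gap2 on the opposite strand, so its value is uncertain.

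Nars2 was the third gene with libraries apart, at 10.8 ± 0.410 CPM with ZNF593-AS and 9.66 ± 0.612 CPM with vector (0.16 ± 0.09). 3 of 16 is beside 12.4% of all tested genes with all ZNF593-AS libraries above. Rars2 was at 25.4 ± 1.99 and 23.5 ± 1.90 CPM (0.11 ± 0.08), Hars2 at 32.8 ± 1.49 and 32.3 ± 1.88 (0.02 ± 0.07), Tars2 at 26.1 ± 0.679 and 26.3 ± 1.01 (-0.01 ± 0.07), and Wars2 at 11.1 ± 0.697 and 11.7 ± 0.654 (-0.08 ± 0.09). Ears2, the glutamate enzyme, was at 9.74 ± 0.550 and 10.2 ± 0.0693 CPM (-0.07 ± 0.08), Yars2 at 9.24 ± 0.736 and 8.93 ± 1.27 (0.06 ± 0.11), Fars2 at 6.71 ± 0.642 and 6.73 ± 0.165 (-0.01 ± 0.10) and Vars2 at 5.42 ± 0.808 and 5.02 ± 0.252 (0.12 ± 0.12). The scarcest were Sars2 at 3.62 ± 0.335 and 3.92 ± 0.499 CPM (-0.11 ± 0.13), Aars2 at 3.32 ± 0.362 and 3.15 ± 0.183 (0.08 ± 0.13), Pars2 at 1.64 ± 0.116 and 1.49 ± 0.249 (0.12 ± 0.18) and Cars2 at 1.34 ± 0.179 and 1.35 ± 0.144 (-0.02 ± 0.19). Counts behind a mitochondrial value went down to 63 per library (Pars2), against 2312 for the cytosolic genes (Qars). 15 of the 16 intervals lay within a 1.5-fold change, Lars2 excepted.

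Lars2, for leucine, had 42.5, 45.4 and 56.2 CPM in ZNF593-AS replicates 1 to 3, against 78.1, 43.2 and 45.9 CPM in vector replicates 1 to 3. Vector replicate 1 stood far above the rest, and the log2 fold change of -0.21 ± 0.26 (edgeR adjusted p = 0.731) turned to 0.11 without it. Vector replicate 1 was also the highest library for Rn18s-rs5, a gene related to 18S ribosomal RNA, with 6482, 6490 and 6286 CPM in the ZNF593-AS libraries and 9455, 7169 and 7254 CPM in the vector libraries, and for the mitochondrial ribosomal RNAs mt-Rnr1 (239 CPM) and mt-Rnr2 (242 CPM). Of the 11217 different 50-base stretches in Lars2 transcripts, 22 occur in transcripts of other genes, Gm15564 among them, which had 0.938, 0.881 and 1.78 CPM with ZNF593-AS and 1.69, 0.573 and 1.18 CPM with vector. The part of these RNAs in the Lars2 values was not tested, and Rn18s-rs5 and Gm15564 were chosen after the values had been seen.

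Outside the interferon pathway and the cell type markers, 3 genes of the related lists passed, beside 6.16% of all tested genes called lower and 2.23% higher. Of 14 genes of other tRNA charging, editing and export, Dtd2 rose and 13 did not pass. Dtd2, which removes wrongly attached amino acids from transfer RNA, stood at 36.2, 37.8 and 41.0 CPM with ZNF593-AS against 32.3, 32.2 and 30.6 CPM with vector (0.27 ± 0.07, edgeR adjusted p = 0.0153). At an unadjusted p under 0.05, 5 of the 14, Dtd2 among them, were higher and 0 lower, where 9.18% of all tested genes were higher. The list's median was 0.13. The Dtd2 call ended without vector replicate 3 (0.25, adjusted p = 0.0641) or ZNF593-AS replicate 3 (0.23, adjusted p = 0.0998). Of 9 mitochondrial translation factors, Mtif2, the initiation factor that brings the first transfer RNA to the mitochondrial ribosome, rose, at 36.5, 40.0 and 42.4 CPM against 30.7, 30.2 and 32.5 CPM (0.35 ± 0.07, edgeR adjusted p = 0.00354), and 8 did not pass, with a list median of 0.01.

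Of 28 tested ATF4 targets outside the synthetases, 0 passed edgeR (9 lower and 1 higher at an unadjusted p under 0.05, where 11.2% of all tested genes were lower and 9.18% higher), with a median of -0.05. Psat1, an enzyme of serine synthesis, had the smallest p, at 112 ± 5.77 CPM with ZNF593-AS and 130 ± 9.90 CPM with vector (-0.22 ± 0.07, edgeR adjusted p = 0.0601). Atf4 itself was abundant and did not pass, at 1449, 1423 and 1365 CPM in ZNF593-AS replicates 1 to 3, against 1437, 1371 and 1366 CPM in vector replicates 1 to 3 (0.02 ± 0.07, edgeR adjusted p = 0.902). Ddit3, which encodes the stress factor CHOP, was at 2735 ± 102 and 2788 ± 296 CPM (-0.03 ± 0.09) and shares 68 exon bases with Mars on the opposite strand, and it is named for that overlap. Of 15 regulators of the eIF2 pathway, which controls ATF4, Eif2ak2, the kinase that senses viral RNA and is itself induced by interferon, fell, at 96.5, 125 and 153 CPM against 671, 624 and 634 CPM (-2.37 ± 0.15, edgeR adjusted p = 3.60e-06), and 14 did not pass.

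**Figure D4:**
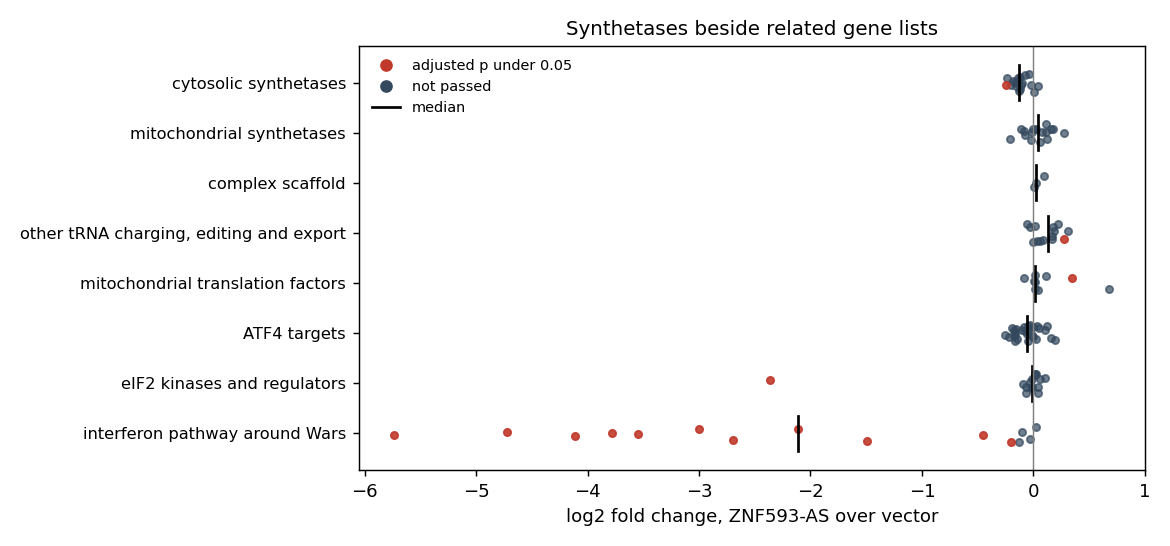
Log2 fold change of ZNF593-AS over vector for the tested genes of each list, 1 point a gene, with called genes in red and the list median as a black bar; vertical scatter within a row only separates points. Both synthetase rows lie between -0.25 and 0.27, whereas 11 genes of the interferon row are called and its median is -2.11.

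Promoters were read for 26 of the 36 genes, from 250 bases before to 50 bases after the start site in RefSeq (GRCm38.p6). Wars, Cars, Hars, Lars, Mars, Nars, Rars, Vars, Hars2 and Pars2 were not searched. The composite ATF4 and C/EBP element, searched as TGATGNAA on both strands, was found in 5 of 12 cytosolic genes (Aars, Gars, Iars, Tars and Yars) and 0 of 14 mitochondrial genes, and 3.97% of all 32851 promoter windows of this length hold it. The interferon-stimulated response element, searched as GAAA, any 2 bases and GAAA, was found in 1 cytosolic gene (Qars) and 0 mitochondrial genes, against 3.44% of all windows. The gamma-activated site, searched as TTCNNNGAA, which reads the same on both strands, was found in 2 cytosolic genes (Aars and Kars) and 1 mitochondrial gene (Nars2), against 8.30% of all windows. The E-box CACGTG, bound by MYC and related factors, was found in 4 of 12 cytosolic genes (Aars, Farsb, Iars and Tars) and 1 of 14 mitochondrial genes (Ears2), against 7.15% of all windows. A match is a run of letters and not a measured site, and it was not tied to any change here. The 5 windows with the ATF4 and C/EBP element are shown because they include Yars, the called gene, and Tars and Gars, among the most abundant. Capitals mark matches to the first 3 motifs, and the E-box is left in lower case. No 2 matches in the members' windows overlapped.
Yars, chr4:129189653-129189952, plus strand: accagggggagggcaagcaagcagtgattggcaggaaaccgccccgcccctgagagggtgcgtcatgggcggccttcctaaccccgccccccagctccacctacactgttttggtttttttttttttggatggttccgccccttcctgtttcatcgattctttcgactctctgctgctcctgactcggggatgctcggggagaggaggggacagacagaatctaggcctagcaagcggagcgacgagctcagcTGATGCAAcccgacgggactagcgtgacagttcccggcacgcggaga
Tars, chr15:11399609-11399908, minus strand: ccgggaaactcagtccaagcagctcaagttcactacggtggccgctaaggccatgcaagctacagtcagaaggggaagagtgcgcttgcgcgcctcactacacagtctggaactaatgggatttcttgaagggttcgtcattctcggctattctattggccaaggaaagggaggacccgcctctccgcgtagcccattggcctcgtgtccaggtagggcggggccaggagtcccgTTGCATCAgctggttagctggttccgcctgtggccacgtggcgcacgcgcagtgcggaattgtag
Gars, chr6:55037751-55038050, plus strand: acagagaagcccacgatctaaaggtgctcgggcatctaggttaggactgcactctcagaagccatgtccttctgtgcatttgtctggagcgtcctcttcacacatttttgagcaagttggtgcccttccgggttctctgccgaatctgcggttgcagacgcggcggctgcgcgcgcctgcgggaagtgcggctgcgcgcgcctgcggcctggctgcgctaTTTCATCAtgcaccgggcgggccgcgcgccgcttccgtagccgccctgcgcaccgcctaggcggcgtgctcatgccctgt
Aars, chr8:111033592-111033891, plus strand: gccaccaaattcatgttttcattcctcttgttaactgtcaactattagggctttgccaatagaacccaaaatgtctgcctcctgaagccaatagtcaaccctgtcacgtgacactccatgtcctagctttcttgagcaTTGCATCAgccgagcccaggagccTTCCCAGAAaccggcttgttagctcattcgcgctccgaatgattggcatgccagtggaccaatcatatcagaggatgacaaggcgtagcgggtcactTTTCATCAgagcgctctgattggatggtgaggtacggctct
Iars, chr13:49681880-49682179, plus strand: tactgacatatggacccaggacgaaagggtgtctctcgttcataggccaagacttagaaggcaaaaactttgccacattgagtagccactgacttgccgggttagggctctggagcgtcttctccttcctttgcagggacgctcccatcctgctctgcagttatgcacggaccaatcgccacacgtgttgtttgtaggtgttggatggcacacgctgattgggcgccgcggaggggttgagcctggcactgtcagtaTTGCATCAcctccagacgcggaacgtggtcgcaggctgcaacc
Counting the start site as 1 and the base before it as -1, the element began at 4 in Yars, at 8 in Iars, at -15 in Tars, at -30 in Gars, and at -112 and 10 in Aars. The match at -88 in Aars is the gamma-activated site.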

How the data were processed

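Total RNA of 6 HL-1 samples was made into libraries after Illumina's protocols, per the labels. The authors deposited raw whole-number counts, 1 value per gene and library, and an exon length in bases beside them. The submitters' processing notes list GRCm38, TopHat2, Bowtie2, CASAVA and cutadapt 1.2.1 but no role for any. How reads were counted (tool, strand, overlaps, annotation) is not given in the sources used here, so values of genes that overlap others, as 12 of the 36 do, are uncertain. Per library 2160 to 2359 genes had a count of 2 and 365 to 492 a count of 1, which is what counting both mates of each pair would give. 26 gene names had been turned into dates, none of a gene named here.

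Libraries were grouped by title. After filterByExpr (at least 10 counts, total of at least 15) 16473 genes remained and were scaled by TMM and tested with edgeR 4.0.16 (robust quasi-likelihood F test, 2-sided, Benjamini-Hochberg over all tested genes, threshold 0.05) in R 4.3.3. All 36 synthetases were tested. SE is the log2 fold change divided by the square root of F, and 95% intervals use it with the moderated degrees of freedom, unadjusted for the number of genes. Alternatives were RLE scaling, library totals, no filter, at least 1 CPM, DESeq2 1.42.0, limma-voom 3.58.1, halved counts, a replicate block and leaving out each library. Coordinates are those of the table, counted from 1, and 30 of the 36 genes had the same ends in GENCODE M21.

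All synthetases are named. Of each related list, up to 3 called genes per direction by smallest p are named, or the gene with the smallest p. Members and lists were chosen with earlier results of these data known. Protein sequences were not used here.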

Additional observations from a re-analysis of the deposited data

How the results depend on the processing

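The number of genes called over the whole table was 1383 and within 1.5 times of it under every alternative except library totals, which called 2095, with 38.7% of them lower, against 73.4%. Library totals called 0 cytosolic synthetases lower, put their median log2 fold change at -0.039 and called 2 mitochondrial synthetases higher. Of 16473 tested genes that setting called 811 lower and 1284 higher. The count of cytosolic genes called lower, 1 in the text, was 2 with no filter (Kars and Yars) and 3 in DESeq2, and 0 to 1 when a library was left out; without vector replicate 2 or ZNF593-AS replicate 3 the gene called was Kars, not Yars. Fold changes of uncalled genes changed sign in 3 cytosolic and 5 mitochondrial genes under library totals, and in 0 to 2 cytosolic and 1 to 4 mitochondrial genes when a library was left out, Lars2 among them (-0.21, and 0.11 without vector replicate 1). No pairing by replicate number was seen in the correlations of deviations from the group means. They were -0.03, -0.03 and 0.05 between same-numbered libraries and -0.06 to 0.08 between the others. With 3 libraries per group they cannot show that the samples were unpaired. A replicate block called 2 cytosolic genes, Kars and Yars, and 1331 genes in all. The SE was 0.07 to 0.26 in the mitochondrial genes and 0.06 to 0.08 in the cytosolic genes; it was highest in Lars2, whose vector libraries spread widely, and next in Cars2 (0.19) and Pars2 (0.18), which had the lowest counts. Groups of 3 libraries were too small for an outlier test.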
